A study of Mus musculus with 18 samples.

Results

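The comparison described here sets 3 tongue libraries with a PIK3CA allele and a p53 allele, E20/p53 replicates 4 to 6, against 3 tongue libraries with the p53 allele alone, p53 replicates 1 to 3. These 6 libraries are part of a series of 18 mouse RNA sequencing libraries. They were chosen by their measured values: both sets of 3 hold high reads of Col1a2, a type I collagen gene, and hardly any of the basal keratin genes Krt5 and Krt14. Among sets of different genotypes they were also the most alike across genes. A difference in collagens or keratins between them is therefore a description, and so is the number of genes that differ. The remaining E20/p53 libraries, replicates 1 to 3, are outside the comparison, and their values are set beside some results. E20/p53 replicates 4 to 6 are called the double mutant set below, and p53 replicates 1 to 3 the p53 set.

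The genotype of the double mutant libraries is given as LSL-PIK3CA H1047R, LSL-p53+/R172H and K14-Cre. The genotype of the p53 libraries is given as heterozygous LSL-p53+/R172H, and no Cre is named for them. LSL stands for a stop cassette flanked by loxP sites, which holds an allele off until it is cut out by Cre recombinase. K14-Cre is driven by the promoter of Krt14 and acts in basal keratinocytes of stratified epithelia. Both sets carry the LSL-p53 R172H allele in 1 copy, and they differ by the PIK3CA allele and, as labelled, by Cre. Whether the stop cassettes were cut in the cells of either set cannot be told from the labels. The sets may therefore also differ in whether R172H was expressed. All 6 libraries are labelled as squamous epithelium of mouse tongue. The title of the series names the carcinogen 4NQO, and the labels do not say which libraries were treated, came from a tumour or were cultured, nor the strain, sex or age of the animals. Nothing states that the 3 libraries of a set came from separate animals, so the p-values below rest on the scatter of these 6 libraries alone, and that scatter may be technical.

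PIK3CA encodes the catalytic subunit of PI3-kinase, which makes the lipid signal that recruits AKT to the membrane, and H1047R is a substitution that raises its activity. p53 is a transcription factor that stops the cell cycle or triggers cell death after damage, and R172H alters its DNA-binding domain. Type I collagen is a product of mesenchymal cells such as fibroblasts, whereas Krt5 and Krt14 form the keratin filaments of basal keratinocytes. The tongue also holds skeletal muscle, whose precursor cells carry PAX3, PAX7 and MYF5, are committed by MYOD1 and myogenin, and then fuse into fibres that build sarcomeres.

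The 6 libraries held between 14949333 and 18176060 counted reads. The deposited log2 values were turned back into reads, and levels are given here as CPM, reads of a gene relative to a scaled library total in units of 1e6 reads. A value with ± is a mean with its SD over 3 libraries, a level in the form of 1 value against another gives the means of the double mutant and the p53 set, and 3 values follow the order of the replicates. In these bulk libraries, fewer cells of a type and less RNA per cell cannot be told apart. Libraries within a set were very alike, with Pearson's r of 0.991 to 0.993 across 15266 genes. Between the 2 sets r was 0.945 to 0.948 over 9 pairs of libraries, against 0.836 to 0.840 between p53 and E20/p53 replicates 1 to 3. E20 replicates 1 to 3, tongue libraries with the PIK3CA allele alone, were nearly as close. Their r was 0.931 to 0.934 with the double mutant set and 0.921 to 0.924 with the p53 set. Genes are not independent, so these values describe likeness only. p53 replicate 3 stood apart: the ribosomal RNA precursor Rn45s took 3.33% of its reads, against 0.0824% to 0.479% in the other 5. Its shares were also higher for Lars2 (0.692% against 0.0244% to 0.146%), for the nuclear RNA Malat1 (0.0618% against 0.0249% to 0.0368%) and for its top 10 genes together (7.49% against 4.35% to 5.37%). Without this library, 1830 genes passed the stricter of the call rules used below, against 1817 with it, and 1747 genes passed in both.

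The genes that chose the libraries were as follows, with no test. Col1a2 stood at 7073, 7799 and 7301 CPM in the double mutant libraries and 3458, 3156 and 3357 CPM in the p53 libraries. Col1a1, the other type I collagen chain, stood at 9236, 9952 and 8579 CPM in the double mutant set, against 3027, 2646 and 3065 CPM in the p53 set. Both chains were higher in each double mutant library than in each p53 library, and Col3a1 (3733 against 2154 CPM) and the type V chain Col5a1 (1525 against 635 CPM) lay the same way. The basement membrane chain Col4a1 lay the other way, at 375 against 933 CPM. Over the 21 measured collagen genes with enough reads, the median log2 difference was 0.38. Krt5 had 0 reads in the double mutant set and 3 reads in the p53 set, and Krt14 stood at 0.199 ± 0.0586 against 0.695 ± 0.142 CPM. In E20/p53 replicates 1 to 3, which the choice left out, Col1a2 stood at 1.58 ± 0.0573 CPM and Krt14 at 483 ± 10.6 CPM. The 15 keratin genes summed to 9.59 to 10.6 CPM in the double mutant libraries and 15.5 to 17.3 CPM in the p53 libraries. The 15 other keratinocyte markers summed to 28.5 to 32.8 CPM and 26.7 to 32.7 CPM, and Epcam, Dsc3 and Ivl had 0 reads in the double mutant set, as Dsg3, Dsc3 and Esrp1 had in the p53 set. The epithelial genes Krt5, Krt14, Epcam, Cdh1 (E-cadherin, 0.140 against 0.285 CPM) and Ivl were thus at or near 0 in both sets. Other genes known from keratinocytes, among them Trp63, Itgb4 and Cdsn, had reads and are given below. Leukocyte markers were low, with 6.85 to 7.64 and 6.29 to 7.69 CPM summed over 12 genes and no reads of Adgre1 and Cd3e in either set.

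Between the 2 sets, 13904 genes were tested with limma, and 8491 of them, or 61.1%, passed an adjusted p under 0.05. Of all genes tested, 33.5% (4652 genes) were higher in the double mutant set and 27.6% (3839 genes) were lower. Which direction held more genes depended on the library scaling: with median-of-ratios factors, 4134 were higher and 4236 lower. Most of these genes differed by less than 2-fold. Adding a minimum of 2-fold left 1817 genes, or 13.1%: 4.44% (618 genes) higher and 8.62% (1199 genes) lower. The counts per gene list below use this 2-fold rule unless stated otherwise and are read against those 2 shares. Counts called by adjusted p alone are read against the 33.5% called higher and the 27.6% called lower. Log2 differences are double mutant minus p53, and their median over all genes tested was 0.04. Lists of known genes are described by their counts and medians, with no test of the list. Fitted log2 differences of genes with 0 to 3 reads in a set depend on the read added before taking the log and are no bound.

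**Figure D1:**
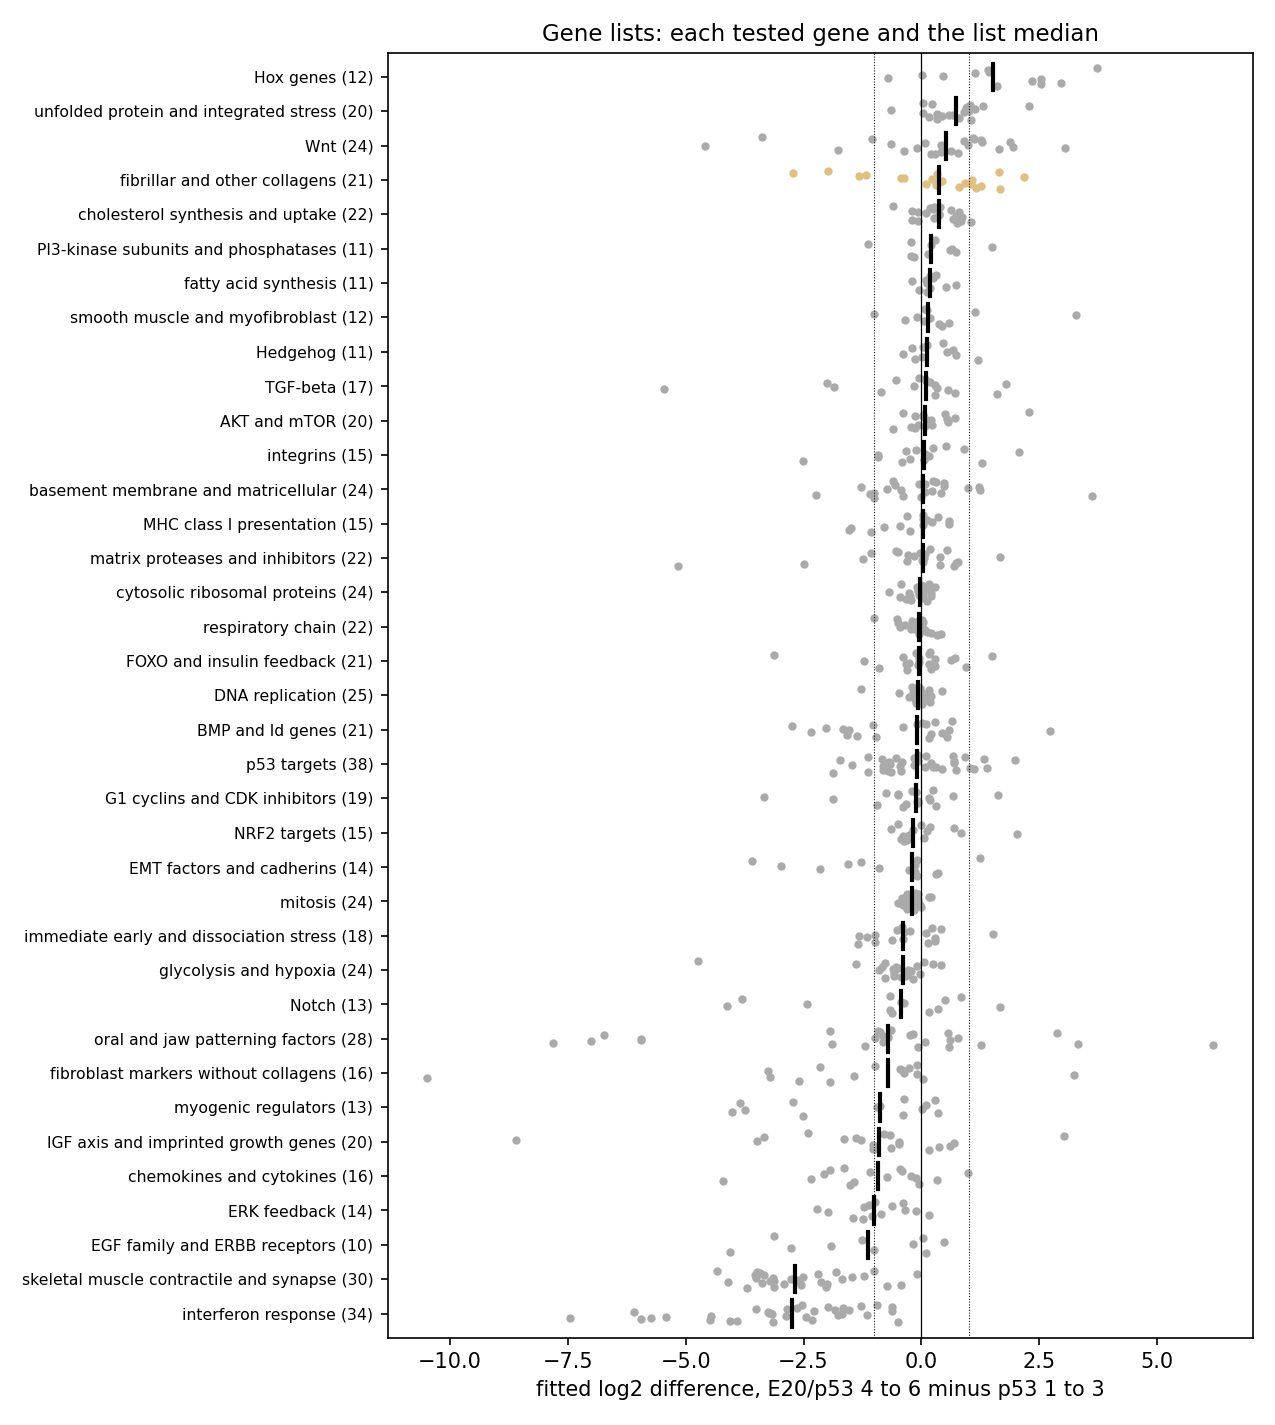
Fitted log2 difference of each tested gene (points) and the median (black bar) of each list with at least 10 tested genes, E20/p53 libraries 4 to 6 minus p53 libraries 1 to 3, with the number of tested genes in brackets and dotted lines at 2-fold. Interferon response genes (median -2.74) and skeletal muscle genes (median -2.69) lie lowest and Hox genes highest (median 1.52), and the collagens, in tan, chose the libraries.

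Of the 15 keratinocyte markers other than keratins, 7 had enough reads to be tested, with a median log2 difference of 0.93. By adjusted p, 4 were higher and 3 lower, and by at least 2-fold 3 were higher and 1 lower. Trp63, the factor of basal cells, stood at 2.96 against 0.866 CPM, the integrin chain gene Itgb4 at 4.36 against 1.02 CPM and the desmosome gene Dsp at 0.471 against 2.72 CPM.

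Trp53, at chr11:69580359-69591873 in mm10, stood at 87.7, 82.6 and 74.8 CPM in p53 and 309, 314 and 312 CPM in the double mutant set. The sets did not overlap, and Trp53 was 3.81-fold higher in the double mutant set (log2 difference 1.93, SE 0.05, adjusted p = 3.83e-16). Pik3ca, at chr3:32397671-32468486, stood at 88.7, 88.4 and 88.0 CPM in E20/p53 replicates 4 to 6 and 96.6, 96.5 and 102 CPM in p53 replicates 1 to 3, a small difference in the other direction (log2 difference -0.16, SE 0.05, adjusted p = 0.0108). These levels count all reads of a gene and do not separate mutant from wild type alleles.

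Cdkn1a, which encodes the cell cycle inhibitor p21 and is a classic target of wild type p53, stood at 57.5, 61.8 and 65.0 CPM in the double mutant libraries and 223, 232 and 223 CPM in the p53 libraries. Every double mutant library was lower than every p53 library (log2 difference -1.88, SE 0.05, adjusted p = 3.73e-16), so the set with more Trp53 reads had fewer Cdkn1a reads. Mdm2, the p53 target that encodes the ligase degrading p53, was also lower, at 68.7 against 107 CPM (log2 difference -0.64). The 38 tested p53 targets did not move together: 5 were higher and 5 lower by at least 2-fold, with a median log2 difference of -0.10. Ccng1 (cyclin G1, 74.2 against 163 CPM) and the antiapoptotic Bcl2l1 (31.1 against 68.1 CPM) fell, while the sestrins Sesn1 (47.1 against 18.1 CPM) and Sesn2 (56.9 against 27.8 CPM), which restrain mTOR complex 1, and the death receptor Fas (32.3 against 14.95 CPM) rose. Among cell cycle inhibitors, Cdkn2b, which encodes p15, was higher, at 121 against 39.1 CPM, and Cdkn1c, which encodes p57, was lower, at 1.30 against 13.4 CPM. With all 6 E20/p53 libraries set against p53, Cdkn2b no longer passed (adjusted p = 0.149).

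Counts for the PI3-kinase pathway itself stand beside the 61.1% of all genes called and the 13.1% that passed the 2-fold rule. Of 11 tested subunits and phosphatases, 6 were called higher and 4 lower by adjusted p alone, and 2 passed the 2-fold rule. Pik3ip1, an inhibitor of PI3-kinase, rose (11.5 against 4.01 CPM) and the lipid phosphatase Inpp4b fell (1.22 against 2.73 CPM). Of 20 AKT and mTOR genes, 1 passed the 2-fold rule, the pseudokinase gene Trib3, which returns below with the stress response. FOXO factors are held out of the nucleus by AKT, and of 21 FOXO and insulin feedback genes 1 was higher and 2 were lower by at least 2-fold, the latter being Erbb3 (0.428 against 3.60 CPM) and Klf2 (3.46 against 8.03 CPM). The call for Klf2 was lost with all 6 E20/p53 libraries (adjusted p = 0.229).

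Skeletal muscle genes were lower in the double mutant set. All 30 contractile and neuromuscular synapse genes of the list were tested, 28 were called lower in the double mutant set and 27 were lower by at least 2-fold, against 8.62% of all genes, and none was higher. Their median log2 difference was -2.69. Their summed level was 817 to 880 CPM in the double mutant libraries and 2810 to 2873 CPM in the p53 libraries.

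Of the regulators, Myod1 (chr7:46376474-46379099), the factor that commits cells to muscle, stood at 9.95, 9.89 and 8.56 CPM in the double mutant set, against 157, 149 and 153 CPM in the p53 set. Myog (myogenin, chr1:134289989-134292548), which starts terminal differentiation, stood at 119.8, 126 and 113 CPM in p53 and 8.34, 8.47 and 9.81 CPM in the double mutant set. Mymk (myomaker), a membrane protein needed for myoblast fusion, stood at 3.81, 6.31 and 5.00 CPM in E20/p53 replicates 4 to 6 and 73.7, 73.2 and 68.4 CPM in p53 replicates 1 to 3. All 3 genes were lower in every double mutant library, 16.2-fold for Myod1 (log2 difference -4.01, SE 0.07, adjusted p = 2.51e-19), 13.5-fold for Myog (log2 difference -3.75, SE 0.07, adjusted p = 2.83e-18) and 14.2-fold for Mymk (log2 difference -3.84, SE 0.12, adjusted p = 2.64e-15). Mymx (myomixer), which acts with myomaker in fusion, fell from 3.77 to 0.554 CPM.

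Factors that act earlier in the lineage differed less. Pax7, a marker of muscle stem cells, stood at 8.93, 7.67 and 6.32 CPM in the double mutant libraries and 47.6, 38.8 and 44.4 CPM in the p53 libraries and was lower without overlap (log2 difference -2.51, SE 0.11, adjusted p = 2.75e-13). Pax3 stood at 18.6 against 24.2 CPM (log2 difference -0.38), and Myf5, the first myogenic factor to appear in embryonic muscle, was slightly higher, at 76.9 against 60.2 CPM (log2 difference 0.36). Six4, a homeobox gene upstream of the myogenic factors, stood at 24.9 against 45.7 CPM (log2 difference -0.87). Mef2c, a cofactor of the myogenic factors, stood at 7.01 ± 0.544 against 6.97 ± 0.460 CPM and did not pass (adjusted p = 0.963). In all, 5 of 13 tested regulators fell by at least 2-fold and none rose, with a median log2 difference of -0.87.

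The products of differentiation showed the same direction. Mylpf, a fast muscle myosin light chain, stood at 10.5, 12.5 and 13.2 CPM in the double mutant set, against 157, 168 and 144 CPM in the p53 set. Tnnt1, slow troponin T, stood at 72.0, 77.5 and 68.8 CPM in p53 and 3.69, 4.20 and 4.74 CPM in the double mutant set. Chrng, the fetal subunit of the acetylcholine receptor, stood at 4.17, 5.17 and 3.82 CPM in E20/p53 replicates 4 to 6 and 49.95, 51.8 and 50.04 CPM in p53 replicates 1 to 3. Each was more than 10 times lower in the double mutant set, as were Cav3 (caveolin of the muscle membrane, 0.544 against 12.1 CPM, log2 difference -4.33), Ryr1 (the calcium release channel, 3.90 against 44.2 CPM) and Acta1 (skeletal actin, 17.3 against 179 CPM). Chrna1, another acetylcholine receptor subunit, differed less, at 261 against 721 CPM (log2 difference -1.47). Des (desmin) fell from 743 to 368 CPM, a call that was lost with all 6 E20/p53 libraries (adjusted p = 0.192). Musk, the kinase that organises the synapse, stood at 19.8 ± 0.804 against 21.0 ± 0.534 CPM with overlapping sets and did not pass (adjusted p = 0.363). Ttn (titin) was uneven within the p53 set, at 102, 83.9 and 218 CPM, with replicate 3 the highest, against 24.8, 30.1 and 25.5 CPM. Cdh15, the M-cadherin of myogenic cells, fell from 347 to 143 CPM, and was not called with all 6 E20/p53 libraries (adjusted p = 0.139). The part of this difference in muscle genes in the other lists below was not tested.

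**Figure D2:**
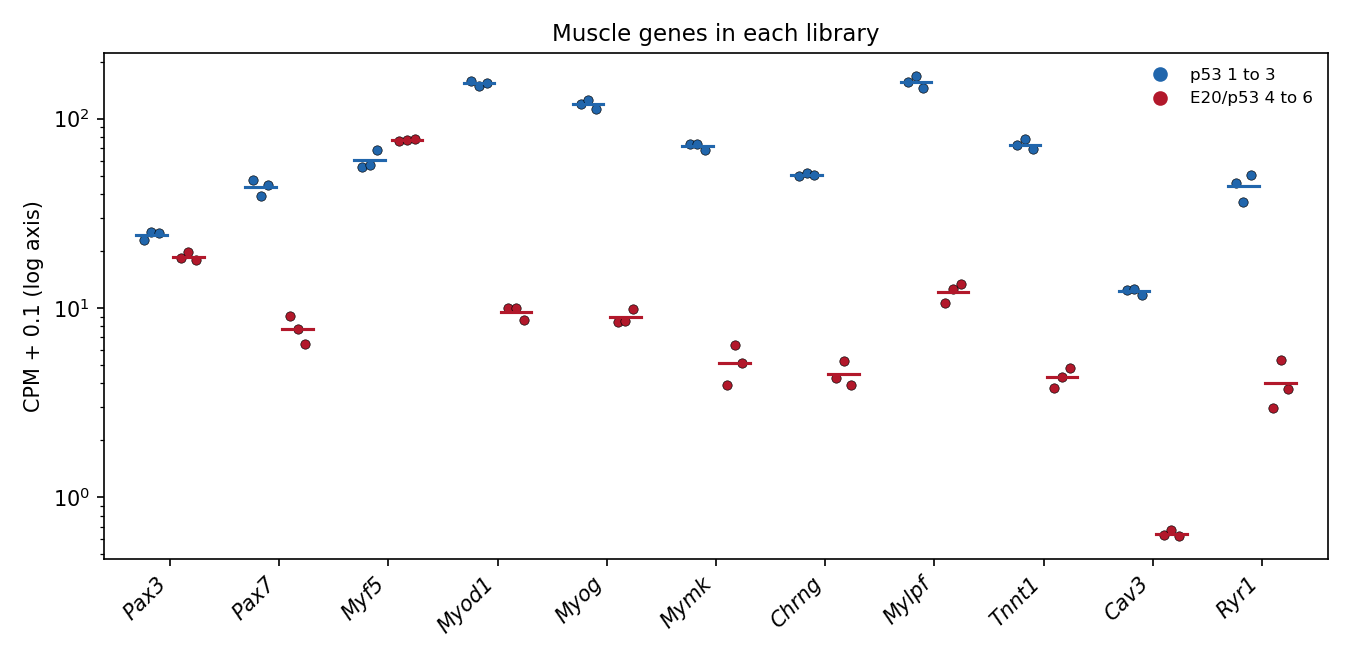
Level of 11 muscle genes in each library (points, log axis, CPM with 0.1 added) with the mean of each set (line), blue for p53 libraries 1 to 3 and red for E20/p53 libraries 4 to 6. Myod1, Myog, Mymk and the differentiation genes are lower in every double mutant library, whereas Pax3 is close between the sets and Myf5 is slightly higher.

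Myogenic factors bind E-boxes, and CAGCTG is one of the sequences they prefer. This motif, read on both strands (it is its own reverse complement), was searched in the 250 bases before each RefSeq gene start (GRCm38.p6, the same build as mm10). Promoters were at hand for 32 of the 45 muscle genes of both lists, and 15 of their 38 promoters (39.5%) held it, against 2769 of 22109 promoters of all genes (12.5%). Promoters of a gene can overlap and share a match, as in Tnni1. Counted by gene, 14 of 32 held it, against 2594 of 18311 of all genes. A match is a description of the letters and shows no binding. The promoter stretches of 4 of the genes with values above are shown because they hold the motif, which is in capitals, within those 250 bases.
Chrng, chr1:87205626-87205714, plus strand: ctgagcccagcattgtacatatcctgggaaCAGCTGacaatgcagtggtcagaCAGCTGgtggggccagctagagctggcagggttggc
Chrna1, chr2:73580347-73580460, minus strand: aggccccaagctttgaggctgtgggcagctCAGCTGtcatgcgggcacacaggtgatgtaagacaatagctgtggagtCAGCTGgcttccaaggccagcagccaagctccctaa
Mylpf, chr7:127211527-127211592, plus strand: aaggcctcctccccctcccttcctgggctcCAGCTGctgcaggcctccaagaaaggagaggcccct
Cav3, chr6:112459369-112459434, plus strand: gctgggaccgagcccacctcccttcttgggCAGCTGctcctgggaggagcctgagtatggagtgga

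Interferon-induced genes were also lower in the double mutant set. Type I interferons act through the receptor chains IFNAR1 and IFNAR2 on a complex of transcription factors that includes STAT2 and IRF9, which switches on genes against viruses. All 34 genes of the list were tested and all 34 were called lower in the double mutant set. By at least 2-fold 30 were lower and none higher, against 8.62% and 4.44% of all genes, and the median log2 difference was -2.74. With all 6 E20/p53 libraries the median was -2.98, and that of the skeletal muscle list was -4.64. The added libraries differ from the double mutant set in collagen and keratin levels, as given above. Such pooled medians mix unlike libraries and cannot show whether either difference holds. The summed level of the interferon list was 388 to 406 CPM in the double mutant libraries and 1332 to 1514 CPM in the p53 libraries. The leukocyte markers given above summed to low, similar levels in both sets, and 4 of the 12 had enough reads to be tested. Which cells carried the reads of the interferon-induced genes was not tested.

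Of the factors in this pathway, Irf7, the one that amplifies the interferon response, stood at 1.31, 1.25 and 1.12 CPM in the double mutant libraries and 27.3, 27.6 and 30.4 CPM in the p53 libraries. The sets did not overlap, and Irf7 was 23.2-fold lower in the double mutant set (log2 difference -4.47, SE 0.13, adjusted p = 5.36e-16). Stat2 (log2 difference -1.68) and Irf9 (log2 difference -1.78) were lower as well. The receptor genes lay the other way by small amounts, with Ifnar1 at 117 against 84.1 CPM (log2 difference 0.48) and Ifnar2 at 71.8 against 58.7 CPM (log2 difference 0.29). Irf1, a factor of the interferon gamma response, was also higher, at 111 against 66.8 CPM (log2 difference 0.73). These 3 genes are not on the list and were chosen after their values were seen.

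Among the effectors, Oas2 (chr5:120730333-120749853), an enzyme that makes the signal for RNA decay, had 0 reads in each double mutant library and stood at 9.84, 9.38 and 13.0 CPM in the p53 libraries. Against a floor of 3 reads over the set, which is 0.0605 CPM, Oas2 was at least 177-fold lower (log2 difference -7.46, SE 0.31, adjusted p = 1.28e-13). Oas3 also had 0 reads, against 2.01, 2.28 and 3.47 CPM, and was at least 42.7-fold lower. Oas1a stood at 0.342 against 24.6 CPM and Oas1g at 0.186 against 11.8 CPM, and these near-identical neighbours can share reads, so their split is uncertain. The same holds for Ifit3 (2.08 against 35.3 CPM) and Ifit3b (1.12 against 17.7 CPM). Usp18, which removes ISG15 from proteins and damps the receptor, stood at 1.25, 1.88 and 1.38 CPM in the double mutant set, against 32.9, 33.0 and 37.3 CPM in the p53 set. Bst2 (tetherin), which holds budding viruses at the cell surface, stood at 111, 117 and 120.4 CPM in p53 and 11.4, 12.0 and 12.7 CPM in the double mutant set. Ifi27l2a was lower still relative to p53, at 0.226 against 19.1 CPM (log2 difference -6.11), and Ddx58, the RNA sensor RIG-I, differed less, at 63.8 against 98.6 CPM (log2 difference -0.62). Ifi202b, an interferon-inducible gene outside the list, had 2 reads in the double mutant set and stood at 70.6, 80.5 and 77.2 CPM in p53, but was at 47.1 ± 1.21 CPM in E20/p53 replicates 1 to 3. With those libraries added its call was lost (adjusted p = 0.199).

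**Figure D3:**
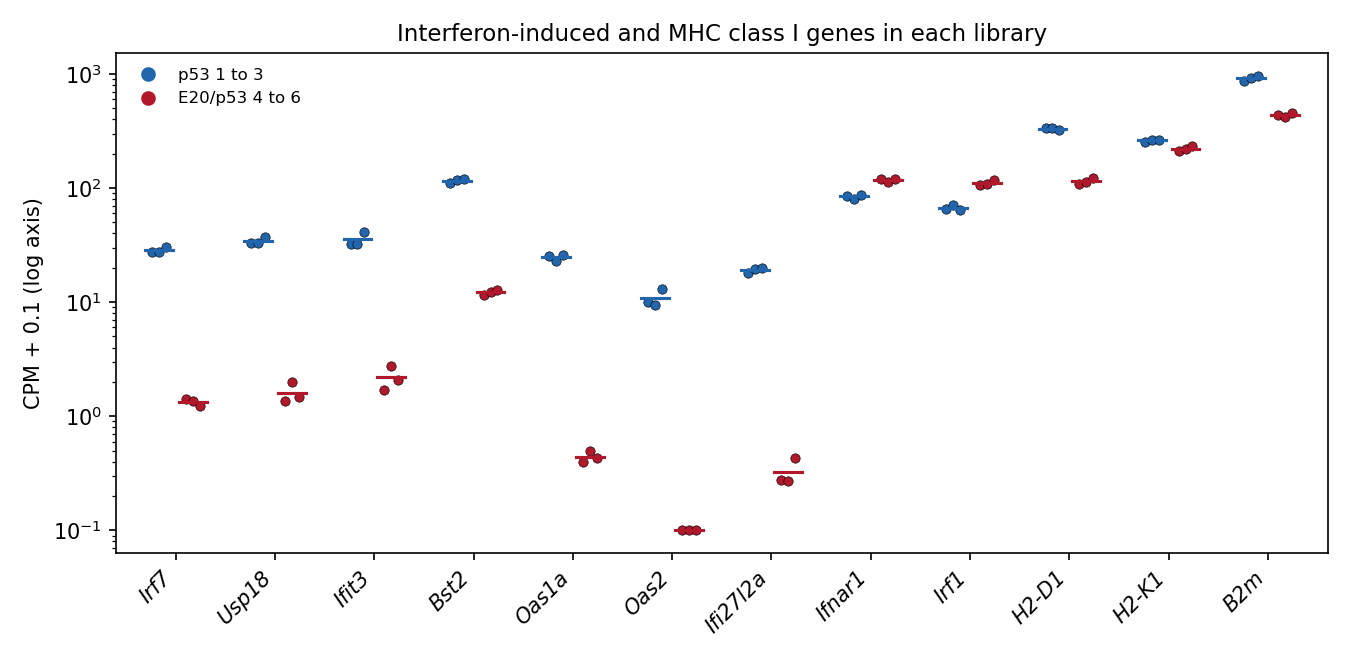
Level of 12 interferon pathway and MHC class I genes in each library (points, log axis, CPM with 0.1 added, so that 0 reads sit at 0.1) with the mean of each set (line). The induced genes from Irf7 to Ifi27l2a are lower in every red double mutant library than in every blue p53 library, and Ifnar1 and Irf1 are higher.

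The DNA sequence known as the interferon response element repeats GAAA. The motif GAAANNGAAA, where N is any base, was searched on both strands of the same 250 bases, and overlapping matches were counted. Promoters were at hand for 25 of the 34 genes, and 15 of their 28 promoters held it, against 657 of 22109 promoters of all genes (2.97%). Stretches of 5 genes are shown with the matches in capitals, so that the repeats within the induced genes can be seen. In Ifit1 and Rsad2 the match is on the other strand, so the capitals are its reverse complement.
Isg15, chr4:156200845-156200926, minus strand: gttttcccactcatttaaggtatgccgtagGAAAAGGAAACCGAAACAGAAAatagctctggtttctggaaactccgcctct
Bst2, chr8:71537557-71537632, minus strand: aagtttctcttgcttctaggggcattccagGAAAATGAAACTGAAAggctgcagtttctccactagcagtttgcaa
Oas1a, chr5:120907526-120907575, minus strand: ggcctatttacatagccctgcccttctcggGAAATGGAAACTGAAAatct
Ifit1, chr19:34640755-34640843, plus strand: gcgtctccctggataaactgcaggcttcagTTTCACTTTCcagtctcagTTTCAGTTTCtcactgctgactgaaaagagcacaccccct
Rsad2, chr12:26456533-26456602, minus strand: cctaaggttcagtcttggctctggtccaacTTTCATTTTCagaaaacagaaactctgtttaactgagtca
Isg15, the ubiquitin-like modifier with 3 overlapping matches, stood at 15.2, 17.3 and 19.7 CPM in E20/p53 replicates 4 to 6 and 78.9, 87.6 and 93.0 CPM in p53 replicates 1 to 3. Rsad2 (viperin), with 1 match, stood at 2.38, 2.67 and 2.24 CPM in the double mutant libraries and 22.7, 19.7 and 27.8 CPM in the p53 libraries. Ifit1, with 2 matches, stood at 8.09 against 73.0 CPM, and all 3 genes were lower without overlap.

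Genes of antigen presentation and chemokines were lower in part. Of 15 MHC class I presentation genes, 3 were lower by at least 2-fold and none was higher, with a median log2 difference of 0.03. The light chain gene B2m stood at 437, 418 and 456 CPM in the double mutant set, against 862, 929 and 963 CPM in the p53 set (log2 difference -1.07, SE 0.05, adjusted p = 1.17e-12). The heavy chain gene H2-D1 stood at 115 against 332 CPM (log2 difference -1.53), whereas H2-K1 differed less, at 221 against 261 CPM (log2 difference -0.24). Reads of these similar genes can be split between them, and the call for H2-D1 was lost with all 6 E20/p53 libraries (adjusted p = 0.116). Of 16 tested chemokines and cytokines, 8 were lower by at least 2-fold and none was higher. Il6 stood at 37.2, 45.9 and 42.1 CPM in p53 and 10.2, 10.1 and 9.41 CPM in the double mutant set (log2 difference -2.06, SE 0.09, adjusted p = 1.55e-13). The monocyte attractants Ccl2 (136 against 386 CPM) and Ccl7 (78.0 against 209 CPM), the alarmin Il33 (13.95 against 53.41 CPM) and the prostaglandin synthase Ptgs2 (65.7 against 206 CPM) fell too. The neutrophil attractant Cxcl5 stood at 1350.2 ± 84.8 against 1474 ± 145 CPM with overlapping sets and did not pass (adjusted p = 0.106), while Cxcl3 had 2 reads in the double mutant set and 17.1, 19.03 and 21.0 CPM in p53. Il1rl1, which encodes the receptor for IL-33, stood at 6.55, 6.53 and 4.28 CPM in E20/p53 replicates 4 to 6 and 1109, 1145 and 1131 CPM in p53 replicates 1 to 3. It was 195-fold lower in the double mutant set (log2 difference -7.62, SE 0.11, adjusted p = 2.21e-20). Cxcl3 no longer passed with all 6 E20/p53 libraries (adjusted p = 0.12).

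Imprinted genes, which are read from 1 parental copy and many of which act on growth, formed a further group. Of 20 tested genes of the IGF axis and imprinted growth genes, 10 were lower and 1 was higher by at least 2-fold, against 8.62% and 4.44% of all genes. By adjusted p alone, 15 were called lower and 4 higher, beside 27.6% and 33.5% of all genes. The median log2 difference of the list was -0.90. Meg3 (chr12:109541001-109571726) and Rian (chr12:109603940-109661716) are noncoding RNAs of 1 imprinted region. Meg3 had 0 reads in each double mutant library and stood at 25.6, 21.1 and 24.3 CPM in p53, so it was at least 391-fold lower (log2 difference -8.61, SE 0.26, adjusted p = 8.57e-16). Rian likewise had 0 reads, against 22.6, 26.1 and 26.4 CPM, and was at least 414-fold lower. Dlk1, a protein-coding gene of the same region that is read from the other parental copy, stood at 0.124 against 1.92 CPM (log2 difference -3.49). These 3 genes of the region were thus lower, from low levels in the case of Dlk1, and other genes of the region are not given here.

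In another imprinted region, Igf2 and H19 are neighbours. Igf2, a fetal growth factor, stood at 1422, 1420.0 and 1430.1 CPM in the double mutant libraries and 2942, 2919.8 and 2774 CPM in the p53 libraries (log2 difference -1.01, SE 0.05, adjusted p = 2.03e-12). H19, a noncoding RNA, stood at 4868 against 9993 CPM (log2 difference -1.04), and the size of the difference was close to that of Igf2. Of other imprinted genes, Zim1 (5.65 against 30.03 CPM), Plagl1 (10.3 against 32.4 CPM), Mest (135 against 356 CPM) and Peg3 (110.3 against 271 CPM) were lower as well. Grb10, an adaptor that binds insulin and IGF receptors and dampens their signal, was the only gene of the list higher by at least 2-fold. It stood at 1166, 1163 and 1156 CPM in the double mutant set, against 140.3, 145 and 144 CPM in the p53 set. It was 8.11-fold higher (log2 difference 3.02, SE 0.04, adjusted p = 3.05e-20), but in E20/p53 replicates 1 to 3 it stood at 161 ± 4.52 CPM, and with those libraries added the call was lost (adjusted p = 0.212).

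Hox genes, which give cells their position along the body axis, were mostly silent or low, and 12 of 32 had enough reads to be tested. Of these, 9 were higher by at least 2-fold in the double mutant set and none was lower, against 4.44% and 8.62% of all genes, with a median log2 difference of 1.52. A gene could be tested on the reads of 1 set alone, in either direction. For genes this low the counts therefore partly reflect that rule. Of the 32 genes, 9 had 0 reads in p53 and 6 had 0 reads in the double mutant set. Hoxa4 stood at 1.81, 1.499 and 1.45 CPM in p53 and 7.98, 8.69 and 8.36 CPM in the double mutant set. Hoxa3 stood at 8.22, 7.90 and 7.24 CPM in E20/p53 replicates 4 to 6 and 1.07, 0.782 and 1.01 CPM in p53 replicates 1 to 3, and Hoxa5 at 6.32 against 1.06 CPM. The sets did not overlap for these 3 genes of 1 cluster (log2 differences 2.35, 2.95 and 2.53). In the Hoxb cluster, Hoxb9 rose from 0.416 to 5.82 CPM (log2 difference 3.72, SE 0.30, adjusted p = 2.38e-09), whereas Hoxb4 did not pass, at 5.56 against 5.59 CPM (adjusted p = 0.954), and Hoxb2 was lower, at 4.24 against 6.89 CPM (log2 difference -0.72). Whether the counting used the strand of the reads is not given in the sources used here, so reads from antisense transcripts in these clusters cannot be told apart. In E20/p53 replicates 1 to 3 Hoxa4 and Hoxa5 had 0 reads. With those libraries added, the median of the list turned to -0.82, Hoxa3, Hoxa4 and Hoxa5 turned to -0.42, -1.24 and -0.86, and Hoxb9 lost its call (adjusted p = 0.822).

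Transcription factors that pattern the mouth and jaw included genes present in 1 set and nearly absent from the other. Of 28 tested, 8 were lower and 4 higher by at least 2-fold, against 8.62% and 4.44% of all genes, with a median log2 difference of -0.71. Lhx8 (chr3:154306294-154330659), a LIM homeobox gene of the oral mesenchyme, had 0 reads in the double mutant set and stood at 13.1, 14.6 and 13.0 CPM in p53, at least 224-fold apart (log2 difference -7.81, SE 0.29, adjusted p = 2.16e-14). Pitx1 had 0 reads against 8.91, 7.95 and 6.43 CPM (at least 128-fold), and Hand2 had 0 reads against 3.68, 4.17 and 3.28 CPM (at least 61.3-fold). Tbx4, a T-box gene known from the hindlimb, stood at 0.119, 0 and 0 CPM against 7.499, 9.77 and 10.7 CPM, which rests on 2 reads in the double mutant set. Alx4 stood at 0.136 against 10.1 CPM. In the other direction, Dlx5, a distal-less gene of the lower jaw, stood at 6.55, 6.02 and 5.27 CPM in the double mutant libraries and 0, 0.0652 and 0 CPM in the p53 libraries, and its neighbour Dlx6 at 0.764 against 0.0217 CPM. Each of these genes separated the sets fully. A gene nearly absent from 1 set could be tested on the reads of the other set alone, so this separation partly reflects the filter. For Lhx8, Pitx1 and Dlx5 a lack of overlap was also part of the rule that named them. The LIM homeobox gene Isl1 rose from 0.652 to 10.2 CPM and Tfap2a, a factor of neural crest and epidermis, from 0.347 to 5.77 CPM. Factors shared by both sets differed less: Prrx1 stood at 231 against 458 CPM (log2 difference -0.99) and Tbx15 at 44.4 against 52.4 CPM (log2 difference -0.24). Pitx1, at 173 ± 7.21 CPM in E20/p53 replicates 1 to 3, lost its call when these were added (adjusted p = 0.811).

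**Figure D4:**
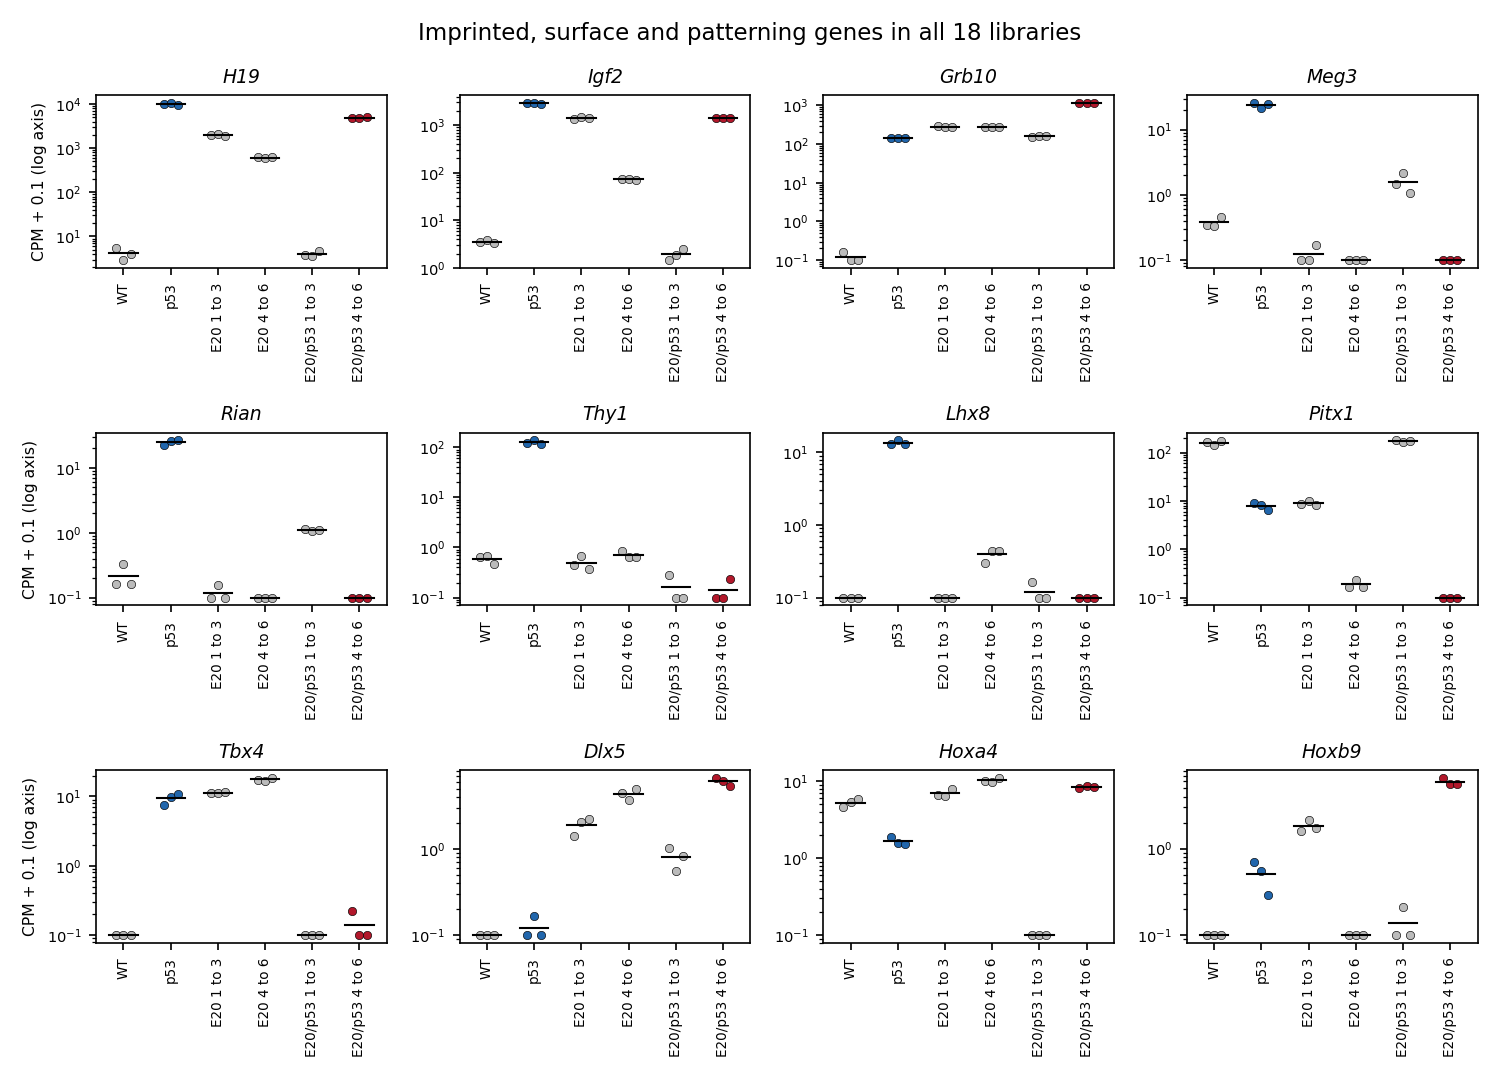
Level of 12 genes in all 18 libraries (points, log axis, CPM with 0.1 added, so that 0 reads sit at 0.1) with the mean of each set of 3 (line), blue for p53, red for E20/p53 libraries 4 to 6 and grey for libraries outside the comparison. Meg3, Rian, Lhx8 and Pitx1 sit at 0 reads in the red set, while Grb10, Dlx5, Hoxa4 and Hoxb9 are higher there than in the blue set.

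Genes of growth factor signalling through ERK were lower in the double mutant set. The list of 14 ERK feedback genes, which are switched on by the pathway and report its output, had 12 called lower, 7 of them by at least 2-fold, and none higher, with a median log2 difference of -1.02. Of all genes, 27.6% were called lower, and 8.62% were lower by at least 2-fold. Etv1, an ETS factor, stood at 4.41, 3.81 and 3.36 CPM in the double mutant set, against 17.2, 17.1 and 20.104 CPM in the p53 set. Spry4, a Sprouty inhibitor of the pathway, stood at 16.2, 15.1 and 14.8 CPM in p53 and 4.53, 3.41 and 3.62 CPM in the double mutant set. The ERK phosphatase gene Dusp6 stood at 11.7, 9.60 and 9.87 CPM in E20/p53 replicates 4 to 6 and 23.7, 19.9 and 21.2 CPM in p53 replicates 1 to 3. The sets did not overlap for any of them (log2 differences -2.22, -1.99 and -1.05), and Etv4 (-1.21), Dusp5 (-1.44), Dusp4 (-1.25) and Phlda1 (-1.12) lay alike. Spry1 stood at 11.8 ± 0.711 against 10.5 ± 0.868 CPM and did not pass (adjusted p = 0.164). The cyclin gene Ccnd1 was lower by a smaller amount, at 394 against 518 CPM (log2 difference -0.39). Of 18 immediate early and dissociation stress genes, 5 were called higher and 11 lower, beside 33.5% and 27.6% of all genes. Their median log2 difference was -0.39. By at least 2-fold, Egr1 (29.1 against 64.8 CPM), Fos (2.62 against 6.62 CPM) and Egr2 (3.27 against 8.29 CPM) fell and Atf3 (12.5 against 4.37 CPM, log2 difference 1.51) rose.

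The EGF family lay the same way, with 6 of 10 tested ligands and receptors lower by at least 2-fold, none higher, and a median log2 difference of -1.13. The receptor gene Egfr stood at 20.19, 20.34 and 20.08 CPM in the double mutant libraries and 48.6, 46.1 and 51.4 CPM in the p53 libraries (log2 difference -1.27, SE 0.07, adjusted p = 5.3e-12). Of the ligands, Ereg (epiregulin) stood at 21.1, 18.1 and 21.4 CPM in the double mutant set, against 76.1, 77.1 and 74.6 CPM in the p53 set. Tgfa (0.0818 against 2.03 CPM), Areg (amphiregulin, 0.240 against 1.99 CPM) and Hbegf (18.97 against 38.03 CPM) were lower too, and the neuregulin gene Nrg1 was higher, at 16.6 against 11.8 CPM (log2 difference 0.49). With all 6 E20/p53 libraries, the calls for Egfr (adjusted p = 0.656), Ereg (0.348), Hbegf (0.692), Etv1 (0.516), Spry4 (0.104), Dusp4 (0.998), Fos (0.673) and Egr1 (0.0813) were lost, and the medians of the ERK feedback and EGF lists came to -0.09 and -0.08.

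Cells raise the genes of the unfolded protein and integrated stress responses when protein folding or amino acid supply falls short, and these were mostly higher in the double mutant set. Of 20 tested genes, 17 were called higher and 1 lower, 6 were higher by at least 2-fold and none was lower to that extent, with a median log2 difference of 0.74. Of all genes, 33.5% were called higher and 27.6% lower, and 4.44% were higher by at least 2-fold. Trib3, a target of ATF4 that binds AKT, stood at 32.2, 31.0 and 32.0 CPM in p53 and 150.3, 157 and 158 CPM in the double mutant set (log2 difference 2.29, SE 0.05, adjusted p = 1.88e-17). Hspa5, the main chaperone of the endoplasmic reticulum, stood at 2313, 2262 and 2274 CPM in E20/p53 replicates 4 to 6 and 1088, 1156 and 1072 CPM in p53 replicates 1 to 3. Chac1, which degrades glutathione, stood at 57.9, 53.07 and 61.1 CPM in the double mutant libraries and 23.8, 21.2 and 23.9 CPM in the p53 libraries. All double mutant libraries were above all p53 libraries for these genes, and Sdf2l1 (1.14), Sesn2 (1.03) and Herpud1 (1.00) had similar log2 differences. Dnajb9 was the gene called lower, at 18.04 against 28.3 CPM. Slc7a11, the cystine transporter that both ATF4 and NRF2 raise, stood at 163, 157 and 156 CPM in the double mutant set, against 35.4, 36.9 and 44.6 CPM in the p53 set (log2 difference 2.03, SE 0.07, adjusted p = 6.15e-15), whereas 14 other NRF2 targets did not pass the 2-fold rule. The stress response calls were among those lost with all 6 E20/p53 libraries, where the adjusted p was 0.49 for Trib3, 0.674 for Hspa5 and 0.791 for Chac1, and the median of the list came to 0.05.

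Among Wnt pathway genes, 8 of 24 tested were higher and 4 lower by at least 2-fold, with a median log2 difference of 0.52. R-spondins strengthen Wnt signals through LGR receptors. Rspo2 stood at 4.82, 4.24 and 4.79 CPM in p53 and 38.2, 36.9 and 40.9 CPM in the double mutant set (log2 difference 3.05, SE 0.09, adjusted p = 1.52e-15), and Rspo3 at 17.3 against 4.45 CPM. Axin2, a target and inhibitor of the pathway, stood at 11.1, 13.4 and 12.2 CPM in E20/p53 replicates 4 to 6 and 3.55, 3.06 and 3.28 CPM in p53 replicates 1 to 3 (log2 difference 1.87, SE 0.13, adjusted p = 2.48e-10). The pathway factor Lef1 (22.3 against 9.17 CPM), the ligand Wnt10b (36.2 against 11.5 CPM) and the targets Nkd1 (4.30 against 1.76 CPM) and Lgr5 (8.24 against 3.89 CPM) rose as well. The inhibitor Dkk2 (0.118 against 4.15 CPM, log2 difference -4.58), the receptor Lgr6 (0.868 against 9.63 CPM) and the ligand Wnt10a (0.671 against 2.41 CPM) fell. Rspo2 (adjusted p = 0.599), Rspo3 (0.86) and Lgr6 (0.144) were not called with all 6 E20/p53 libraries, and the median of the list came to 0.10.

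**Figure D5:**
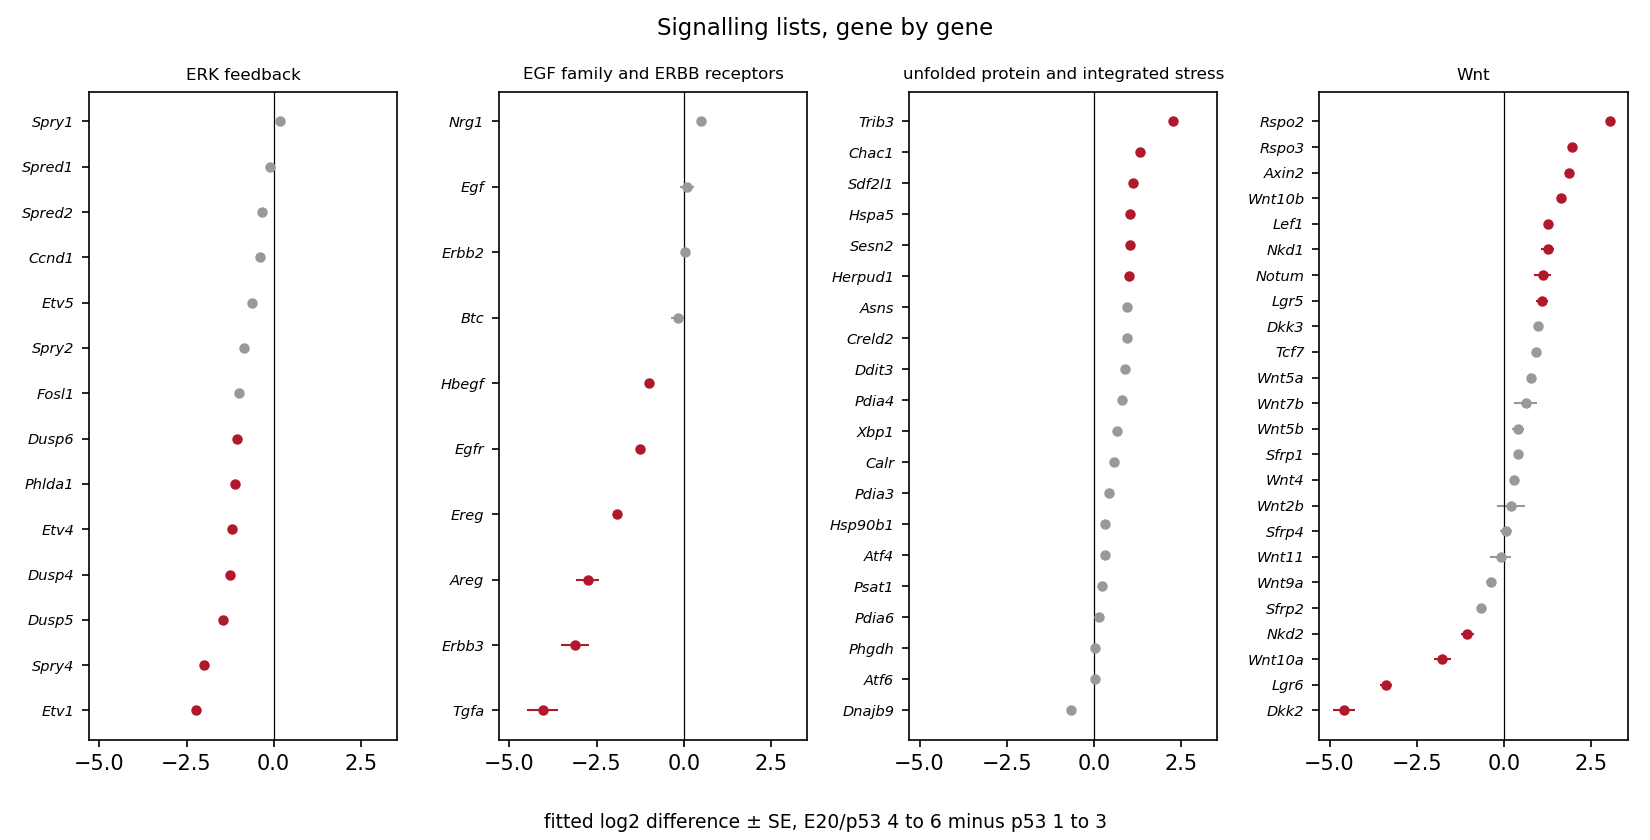
Fitted log2 difference with its SE for each tested gene of 4 signalling lists, E20/p53 libraries 4 to 6 minus p53 libraries 1 to 3, in red where the gene passed the 2-fold rule and in grey otherwise. ERK feedback and EGF family genes lie mostly left of 0 (medians -1.02 and -1.13) and stress response and Wnt genes mostly right of it (medians 0.74 and 0.52).

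The Notch, TGF-beta and BMP lists had median log2 differences of -0.44, 0.09 and -0.09 and held genes that changed in both directions. In Notch signalling the ligand gene Jag2 stood at 1.19, 1.42 and 1.51 CPM in the double mutant libraries and 26.9, 22.5 and 25.1 CPM in the p53 libraries, and the ligand gene Jag1 at 41.6, 41.1 and 36.3 CPM in the double mutant set, against 12.4, 11.2 and 13.6 CPM in the p53 set. The 2 ligands thus lay in opposite directions, each without overlap (log2 differences -4.12 and 1.68). The ligand Dll1 (7.34 against 39.8 CPM) and the target Heyl (0.406 against 6.502 CPM) fell, and Hes1, a general target, was lower by a small amount, at 27.7 against 35.7 CPM (log2 difference -0.36). Tgfbr3 (betaglycan), a coreceptor for TGF-beta ligands, stood at 93.5, 87.6 and 92.8 CPM in p53 and 1.67, 2.33 and 2.11 CPM in the double mutant set and was 44.9-fold lower (log2 difference -5.46, SE 0.11, adjusted p = 2.83e-18). The activin chain genes parted, with Inhbb at 27.4 against 109.5 CPM and Inhba at 36.7 against 10.7 CPM, while the ligand gene Tgfb2 rose from 53.7 to 163 CPM. Of 21 tested BMP and Id genes, 8 were lower and 1 higher by at least 2-fold, among them the BMP targets Id1 (15.3 against 48.5 CPM) and Id2 (24.96 against 100.9 CPM) and the BMP antagonists Grem1 (39.7 against 118 CPM) and Chrd (1.27 against 6.62 CPM), which fell. The gene that rose was another BMP antagonist, Chrdl1, at 9.95, 8.01 and 9.48 CPM in E20/p53 replicates 4 to 6 and 1.27, 1.30 and 1.39 CPM in p53 replicates 1 to 3 (log2 difference 2.73, SE 0.16, adjusted p = 2.85e-11). The ligand Bmp4 was slightly higher, at 33.8 against 23.4 CPM (log2 difference 0.53). When all 6 E20/p53 libraries were used, Jag2 (adjusted p = 0.671), Tgfbr3 (0.157), Id1 (0.376), Id2 (0.141) and Chrd (0.367) were not called.

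Both sets were rich in collagen, and they differed in other genes of fibroblasts. Of 16 tested fibroblast markers other than collagens, 7 were lower in the double mutant set and 1 was higher by at least 2-fold, with a median log2 difference of -0.72. The summed level of the list was close, at 7055 to 7253 against 7047 to 7663 CPM. Thy1 (chr9:44043384-44048579), a surface protein of fibroblasts and other cells, stood at 0, 0 and 0.132 CPM in the double mutant libraries and 123, 137 and 116 CPM in the p53 libraries, with 2 reads in all in the double mutant set. Thy1 was near 0 also in E20/p53 replicates 1 to 3, at 0.0617 ± 0.107 CPM. Pdgfra, the receptor that marks many fibroblasts, stood at 60.1, 69.9 and 65.5 CPM in the double mutant set, against 395, 384 and 402 CPM in the p53 set (log2 difference -2.60, SE 0.05, adjusted p = 4.84e-18), while its relative Pdgfrb stood at 386 ± 18.4 against 378 ± 10.5 CPM with overlapping sets and did not pass (adjusted p = 0.599). The matrix genes Dcn (decorin, 15.4 against 59.1 CPM), Mfap5 (1.04 against 10.3 CPM) and Dpt (dermatopontin, 1.18 against 11.1 CPM) fell, and the intermediate filament gene Vim did not pass, at 2530.0 ± 61.7 against 2718 ± 168 CPM (adjusted p = 0.13).

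Postn (periostin), a matrix protein of tendon, periosteum and wounds, was the fibroblast marker that rose, at 169, 189 and 177 CPM in p53 and 1696, 1643 and 1708 CPM in the double mutant set (log2 difference 3.24, SE 0.05, adjusted p = 6.02e-20). Of 12 smooth muscle and myofibroblast genes, Actg2 (enteric smooth muscle actin) stood at 291, 292 and 298 CPM in E20/p53 replicates 4 to 6 and 28.6, 31.7 and 30.6 CPM in p53 replicates 1 to 3 (log2 difference 3.28, SE 0.05, adjusted p = 9.52e-20), and Acta2 (smooth muscle actin) was close, at 3105 against 2306 CPM (log2 difference 0.43). Lmod1, which builds actin filaments in smooth muscle, rose from 8.82 to 19.5 CPM. In E20/p53 replicates 1 to 3 Actg2 stood at 0.350 ± 0.0766 CPM, and with those libraries added Actg2 and Lmod1 turned to -1.48 and -2.08 and Postn lost its call (adjusted p = 0.308).

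Matrix and adhesion genes changed in both directions, with list medians near 0 (0.03 for basement membrane and matricellular genes, 0.03 for proteases and inhibitors, 0.05 for integrins). Lama1, a laminin chain of embryonic basement membranes, stood at 73.4, 81.7 and 81.3 CPM in the double mutant libraries and 7.16, 6.71 and 5.42 CPM in the p53 libraries (log2 difference 3.61, SE 0.09, adjusted p = 1.19e-16), and Lama4, the laminin chain of vessels and muscle, stood at 17.0, 16.1 and 16.7 CPM in the double mutant set, against 79.3, 74.9 and 79.7 CPM in the p53 set (log2 difference -2.23, SE 0.06, adjusted p = 4.5e-16). These 2 laminin chains lay in opposite directions. Fn1 (fibronectin) rose from 3888 to 9220.3 CPM, and the related matricellular genes parted, with Thbs1 at 2564 against 1096 CPM and Thbs2 at 199.7 against 484 CPM. Mmp3 (stromelysin), a matrix protease, stood at 126, 136 and 121 CPM in p53 and 3.39, 3.35 and 3.82 CPM in the double mutant set and was 36.2-fold lower (log2 difference -5.16, SE 0.08, adjusted p = 9.52e-20). Timp3, an inhibitor of such proteases, rose from 169.7 to 542 CPM, while Timp1 fell from 681 to 287 CPM. Of the integrins, the collagen receptors Itga11 (41.9 against 9.89 CPM) and Itga1 (13.5 against 5.51 CPM) rose and Itga4 (1.41 against 8.22 CPM) fell. Of the cadherins, Cdh3 (P-cadherin, 1.47 against 11.9 CPM) and Cdh13 (8.75 against 25.9 CPM) fell, whereas Cdh2 (N-cadherin) differed less than 2-fold, at 92.3 against 173 CPM. Against p53, all 6 E20/p53 libraries together turned Lama1, Cdh3 and Cdh13 to -0.71, 0.25 and 0.48, and Lama4 (adjusted p = 0.0723), Fn1 (0.61), Thbs2 (0.0935), Mmp3 (0.0622) and Itga11 (0.266) were not called.

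Some of the widest separations lay outside these lists. Scara5, a scavenger receptor that binds ferritin, stood at 63.5, 67.0 and 73.5 CPM in E20/p53 replicates 4 to 6 and 1.34, 1.76 and 1.07 CPM in p53 replicates 1 to 3 (log2 difference 5.57, SE 0.14, adjusted p = 7.31e-17). Enpp2 (autotaxin), which makes the lipid mediator lysophosphatidic acid, stood at 53.24, 61.1 and 61.7 CPM in the double mutant libraries and 4.49, 3.13 and 3.53 CPM in the p53 libraries (log2 difference 3.97, SE 0.11, adjusted p = 5.36e-16). Cdsn (corneodesmosin), known from the cornified layer of skin, stood at 536, 581 and 571 CPM in the double mutant set, against 32.1, 29.6 and 28.6 CPM in the p53 set (log2 difference 4.22, SE 0.05, adjusted p = 8.05e-21). The sets were fully apart for these 3 genes, as the rule that named them required. The calcium channel gene Trpc6 (35.8 against 1.94 CPM), the kinase gene Camk4 (17.7 against 0.868 CPM) and the MHC class II chaperone gene Cd74 (19.6 against 1.17 CPM) rose as well. Mgl2, a lectin gene of macrophages and dendritic cells, stood at 5.96, 5.15 and 3.84 CPM in p53 and 68.7, 68.8 and 72.6 CPM in the double mutant set, in libraries where the macrophage marker Adgre1 had 0 reads. In the other direction, Ptgis, the prostacyclin synthase, stood at 0.298, 0.227 and 0.0658 CPM in E20/p53 replicates 4 to 6 and 47.9, 49.2 and 45.9 CPM in p53 replicates 1 to 3 (log2 difference -7.65, SE 0.26, adjusted p = 5.06e-15). Serpina3n, a protease inhibitor of inflammation, stood at 0.476, 0.114 and 0.395 CPM in the double mutant libraries and 53.8, 55.7 and 53.19 CPM in the p53 libraries (log2 difference -7.29, SE 0.28, adjusted p = 3.34e-14). Slit3, a guidance ligand, had 2 reads in the double mutant set and 50.1, 44.0 and 49.5 CPM in p53. In a fit with all 6 E20/p53 libraries, Cdsn (adjusted p = 0.891), Trpc6 (0.517), Cd74 (0.874) and Slit3 (0.196) were not called, and Mgl2 turned to -1.30.

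Most genes of growth and metabolism differed by less than 2-fold. Of 24 mitosis genes, 16 were called lower and 2 higher, none by 2-fold, with a median log2 difference of -0.20. Of 25 DNA replication genes, Rrm2, a subunit of the enzyme that makes deoxynucleotides, was the one that passed the 2-fold rule, at 143 against 347 CPM (log2 difference -1.28), a call lost with all 6 E20/p53 libraries (adjusted p = 0.078). Of 24 glycolysis and hypoxia genes, 19 were called lower and 1 higher, with a median log2 difference of -0.39. The hypoxia targets Adm (adrenomedullin) and Egln3 passed the 2-fold rule, and Adm stood at 2.86, 2.10 and 2.76 CPM in the double mutant set, against 67.7, 75.5 and 67.4 CPM in the p53 set (log2 difference -4.75, SE 0.11, adjusted p = 2.93e-17). Of 22 genes of cholesterol synthesis and uptake, 15 were called higher and 3 lower, with a median log2 difference of 0.38, and Hmgcs1, an early enzyme of that synthesis, reached 2-fold, at 199 against 96.7 CPM. These shares stand beside the 33.5% of all genes called higher and 27.6% called lower.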

How the data were processed

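RNA from mouse tongue was sequenced with the TruSeq Stranded mRNA LT kit, per the labels' protocols. Per the submitters' processing notes the authors used bcl2fastq 1.8.4, Trimmomatic and featureCounts with mm10. The aligner, the annotation, the strand setting and the scaling method are each not given in the sources used here. Log2 values were deposited by the authors for 26143 genes in 18 libraries. Each is the log2 of a gene's reads plus 1, less the log2 of the library's scaled total, from which whole reads were recovered for 100% of values within 0.001.

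E20/p53 replicates 4 to 6 and p53 replicates 1 to 3, grouped by their labels, were compared with limma 3.58.1 in R 4.3.3 on the deposited log2 values, with a mean per set and a mean-variance trend. P-values were adjusted by the Benjamini-Hochberg method over 13904 genes. A tested gene held at least 0.6168 CPM (10 reads at the median depth) in at least 3 of the 6 libraries. Totals of 14949333 to 18176060 reads set the counting precision. Floors of 3 reads cover counting error only. Permuting 3 libraries against 3 cannot give a two-sided p under 0.1, so no permutation p is given. The script was tested on simulated data.

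The libraries, the gene lists and the tests were chosen with earlier results of these data known. Named genes were the allele and marker genes, up to 15 in each direction by size of difference with at least 5 CPM in the higher set and no overlap, and up to 4 per list passing the 2-fold rule with at least 5 CPM. Other list members are given as levels, and genes of uncertain role were left out. The alternatives were 3 other library scalings, log2 of CPM plus 1, other filters, limma's voom on recovered reads, no trend, all 18 libraries in the fit, all 6 E20/p53 libraries, and leaving out each library. Promoters came from RefSeq (GRCm38.p6). The WT and E20 libraries enter only the plot of 18 libraries, that fit and the likeness between sets. A few genes are not reported here.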

Additional observations from a re-analysis of the deposited data

How the results depend on the processing

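Leaving out each of the 6 libraries in turn gave 7672 to 8196 called genes (4176 to 4566 higher and 3494 to 3727 lower), 1809 to 1831 by the 2-fold rule (615 to 628 higher and 1194 to 1216 lower), and 0 of 131 named genes lost the call. Col1a1, Col1a2 and Col2a1 are among the 131 and had no call to lose. Most of the others were named for a large difference, so keeping the call was likely beforehand. The split of called genes by direction moved with the library scaling. The plain sum of reads gave 4280 higher and 3998 lower. Median-of-ratios factors gave 4134 and 4236, and trimmed mean of M values factors gave 4150 and 4217. With log2 of CPM plus 1, 402 genes were higher by the 2-fold rule. With a filter at 50 reads, 1129 passed it, 390 higher and 739 lower, as fewer genes were tested. Without a filter 2675 of 20010 genes passed.

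Setting all 6 E20/p53 libraries against p53 gave 2846 called genes, 1403 higher and 1443 lower, and 1130 by the 2-fold rule, 360 higher and 770 lower. Of these, 944 genes were also among the 1817. Of the 131 named genes, 47 lost the call and 12 reversed. The log2 difference turned to -2.56 for Col1a1, -4.92 for Col1a2, -0.14 for Col2a1, -1.30 for Mgl2, -1.48 for Actg2, -2.08 for Lmod1, -0.42 for Hoxa3, -1.24 for Hoxa4, -0.86 for Hoxa5, 0.25 for Cdh3, 0.48 for Cdh13 and -0.71 for Lama1, and the Hox list median to -0.82. Of 45 list medians 35 others moved beyond the spread between replicates. The sign also changed for collagens (0.38 to -0.77), smooth muscle (0.15 to -1.53), basement membrane (0.03 to -0.81), matrix proteases (0.03 to -0.91), leukocytes (0.07 to -0.29), FOXO (-0.05 to 0.11) and MHC class I (0.03 to -0.20), and among those that kept it the imprinted list came to -2.44 and myogenic regulators to -3.62. This alternative adds libraries that the choice of sets left out, and the cause of each change was not tested.

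With totals taken as the plain sum of reads, Col1a2 in E20/p53 replicates 1 to 3 stood at 1.76 CPM in place of 1.58. No paired analysis was possible because replicates 4 to 6 and replicates 1 to 3 share no number. Depth limits genes near the filter, for which 3 reads in a set are 0.0605 CPM (double mutant) or 0.0650 CPM (p53).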

Other observations

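Genes of cartilage, bone and tendon were measured at low to moderate levels. Of 7 tested, 5 were called higher in the double mutant set and 1 lower, and 3 were higher by at least 2-fold, Col2a1 among them, a collagen gene and so a description. Of all genes, 33.5% were called higher and 27.6% lower, and 4.44% were higher by at least 2-fold. Alpl, the phosphatase of mineralising bone, stood at 8.17, 8.01 and 7.44 CPM in p53 and 40.8, 35.9 and 37.9 CPM in the double mutant set (log2 difference 2.27, SE 0.09, adjusted p = 2.7e-14), and the bone factor Sp7 rose from 0.589 to 1.52 CPM. Sox9, the factor of cartilage, was lower, at 21.1 against 36.9 CPM, and Acan, which encodes the main cartilage proteoglycan, had 0 reads in the double mutant set and 5 in p53. With all 6 E20/p53 libraries Alpl was not called (adjusted p = 0.935).

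Of 4 tested adipocyte genes, 2 were lower. Lpl (lipoprotein lipase) stood at 50.8, 49.0 and 46.3 CPM in E20/p53 replicates 4 to 6 and 156, 161 and 163 CPM in p53 replicates 1 to 3 (log2 difference -1.71, SE 0.05, adjusted p = 1.13e-15), and Fabp4 fell from 3.83 to 1.19 CPM, while Pparg, the factor that drives fat cells, stood at 8.38 ± 0.657 against 7.23 ± 0.701 CPM and did not pass (adjusted p = 0.135). The 10 endothelial genes summed to 5.84 to 7.64 CPM in the double mutant libraries and 6.16 to 8.82 CPM in the p53 libraries. Glial genes summed to 2.17 to 3.47 and 6.43 to 7.63 CPM, and Sox10 had 0 reads in all 6 libraries.

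Of 11 tested Hedgehog genes, the receptor and target gene Ptch1 passed the 2-fold rule, at 30.9, 30.3 and 28.0 CPM in the double mutant libraries and 12.7, 10.9 and 15.8 CPM in the p53 libraries (log2 difference 1.19, SE 0.11, adjusted p = 1.11e-08), while the target Gli1 stood at 0.945 against 0.540 CPM and did not pass (adjusted p = 0.0519). None of 11 fatty acid synthesis genes and none of 24 ribosomal protein genes passed it, with medians of 0.18 and -0.03. Of 22 respiratory chain genes 1 did, Cox7a1, at 0.680 against 1.41 CPM.

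Reads of Y chromosome genes were present in all 6 libraries, with Eif2s3y at 70.0, 66.6 and 66.2 CPM in the double mutant set and 90.2, 96.2 and 99.6 CPM in p53 (log2 difference -0.49), and Xist was low, at 0.826 against 0.172 CPM. With all 6 E20/p53 libraries Eif2s3y was not called (adjusted p = 0.487).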
